A study of Mus musculus with 4 samples.

Results

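The genes described here are 31 protein-coding genes of ribosome biogenesis, taken by symbol from a deposited table of 46517 genes, and all 31 were found in it. They encode subunits of RNA polymerase I, nucleolar proteins, the proteins of small nucleolar ribonucleoprotein particles (snoRNPs) and the assembly factors of both ribosomal subunits. RNA was sequenced from invariant natural killer T (iNKT) cells of the thymus of C57BL/6J mice, T cells whose semi-invariant receptor recognises lipids presented by CD1d. The cells had been sorted at stage 1, which the labels define as CD24-, NK1.1- and T-bet-. Each of the groups, Control and Prmt5 KO, has 2 libraries, and the comparison asked what deletion of Prmt5, which encodes an arginine methyltransferase, does to transcripts of these cells. The Prmt5 KO mice were Prmt5 flox/D with Cd4-Cre, a transgene that recombines in developing T cells. The Control libraries carry one label that names both Prmt5 flox/D and Prmt5 flox/+ Cd4-Cre, so which library came from which genotype is not given, and every group carries a floxed Prmt5 allele. Complementary DNA was amplified with SMART-seq v4 chemistry and sequenced on an Ion Proton. The labels give no age or sex and do not tie each library to a mouse of its own, so each p-value rests on differences among libraries that could be technical.

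A ribosome is built in the nucleolus, where RNA polymerase I transcribes the ribosomal RNA precursor. Box C/D snoRNPs methylate that RNA, box H/ACA snoRNPs convert uridines to pseudouridine, and a series of assembly factors folds and cuts it into the small (40S) and large (60S) subunits. The transcription factor MYC, as a dimer with MAX, drives many of these genes through the E-box CACGTG, and their transcripts are abundant in growing T cells. Disturbed ribosome assembly is known to stabilise p53, because free ribosomal proteins bind MDM2.

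Reads on annotated exons numbered 4600799 to 13240293 per library, with Prmt5 KO 1 the deepest. Levels are exon read counts scaled for library size with TMM factors (CPM), which allow for differences in the make-up of the libraries. Prmt5 itself was at 98.3 and 99.8 CPM in Control 1 and 2 against 86.7 and 119 CPM in Prmt5 KO 1 and 2. The table holds no reads per exon, so this gene-level value does not check the labels. The T cell gene Cd3e and Zbtb16, which encodes the iNKT lineage factor PLZF, were present in all 4 libraries, at 287 to 853 CPM and 145 to 350 CPM. Of markers of other cells, the B cell gene Ms4a1 and the myeloid gene Lyz2 were at 0 in all 4, but others were not. The 4 B cell markers summed to 0.177 and 0 CPM in Control against 0.271 and 3.94 CPM in Prmt5 KO, where Prmt5 KO 2 held Cd79b. The 5 myeloid markers summed to 61.9 to 162 CPM per library, most of it Cst3, and the integrin gene Itgam among them was at 1.77 and 0 CPM in Control against 12.4 and 7.09 CPM in Prmt5 KO. The thymic epithelial gene Epcam was at 2.48 and 0 CPM in Control against 5.02 and 7.88 CPM in Prmt5 KO. The summed level of 6 markers of double-positive thymocytes, which are less mature, was 5.31 and 13.6 CPM in Control against 23.0 and 4.73 CPM in Prmt5 KO. Most of the sum in Prmt5 KO 1 was Cd8a and Cd8b1, at 7.93 and 13.7 CPM. Rag1 and Rag2 had 1 read each in that library and 0 in the others. Of the 3 genes that the sort selects against, Tbx21, which encodes T-bet, was at 107 and 64.6 CPM in Control against 13.4 and 5.71 CPM in Prmt5 KO. Klrb1c, the NK1.1 gene, was at 36.8 and 13.1 CPM in Control against 2.91 and 13.8 CPM in Prmt5 KO. Cd24a went the other way, with 0 reads in both Control libraries against 82 and 13 reads, or 5.56 and 2.56 CPM, in Prmt5 KO. The part of these cell markers in the results was not tested. In bulk samples, fewer cells of a type and less RNA per cell cannot be told apart.

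The 31 genes showed no change that passed the test. With edgeR's quasi-likelihood test on exon reads, 0 of 31 had an adjusted p under 0.05, where 0.00928% of all 10775 tested genes did. An unadjusted p under 0.05 was reached by 0 of the 31 in either direction, beside 4.62% of all tested genes higher and 3.95% lower. With the replicate number as a block it was reached by 5 of the 31 lower (16.1%, beside 7.44% of genes) and 1 higher (3.23%, beside 7.37%). With total gene reads, the only other setting with all 4 libraries that gave any, it was reached by 1 lower (3.23%, beside 4.0% of genes) and 0 higher (beside 4.99%). With other settings 0 of the 31 were called too, beside 1.59% of all tested genes with DESeq2, 0.121% with limma-voom, 1.19% with no filter, 0.00958% with unique exon reads, 0.115% with total gene reads and 3.36% with the replicate number as a block. With Control 1, Control 2, Prmt5 KO 1 or Prmt5 KO 2 left out, 0 of the 31 were called beside 0.00874%, 0.0349%, 0.0802% and 0.325% of genes. Log2 fold changes (Prmt5 KO minus Control) ran from -0.73 to 0.78, and adjusted p from 0.616 to 0.997. The median was -0.20, beside -0.00028 for all genes tested, and 23 of 31 were negative, beside 50% of all genes. With TMM scaling, in 12 of the 31 both Prmt5 KO libraries lay below both Control libraries, beside 19% of all tested genes, and in 1 of the 31 both lay above, beside 20.5%. With each library scaled by its exon read total, these counts were 7 and 2, beside 15.8% and 23.0% of genes, and the median over the 31 was -0.11, where that of all genes moved to 0.093.

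The precision of the fit sets what these values can exclude. Standard errors of the log2 fold changes were 0.30 to 0.57, and the 95% interval of each of the 31 genes held 0. The interval excluded a 2-fold rise for 29 of the 31 genes and a 2-fold fall for 15. A 4-fold fall was excluded for all 31, and a 4-fold rise for 30, with Utp20 the exception. These are intervals of single genes, without adjustment over the 31, and they rest on differences among libraries that could be technical. They also draw on the spread of other genes, because the libraries alone leave 2 residual degrees of freedom per gene. With 2 libraries per group, differences within these intervals could not be told from 0.

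**Figure D1:**
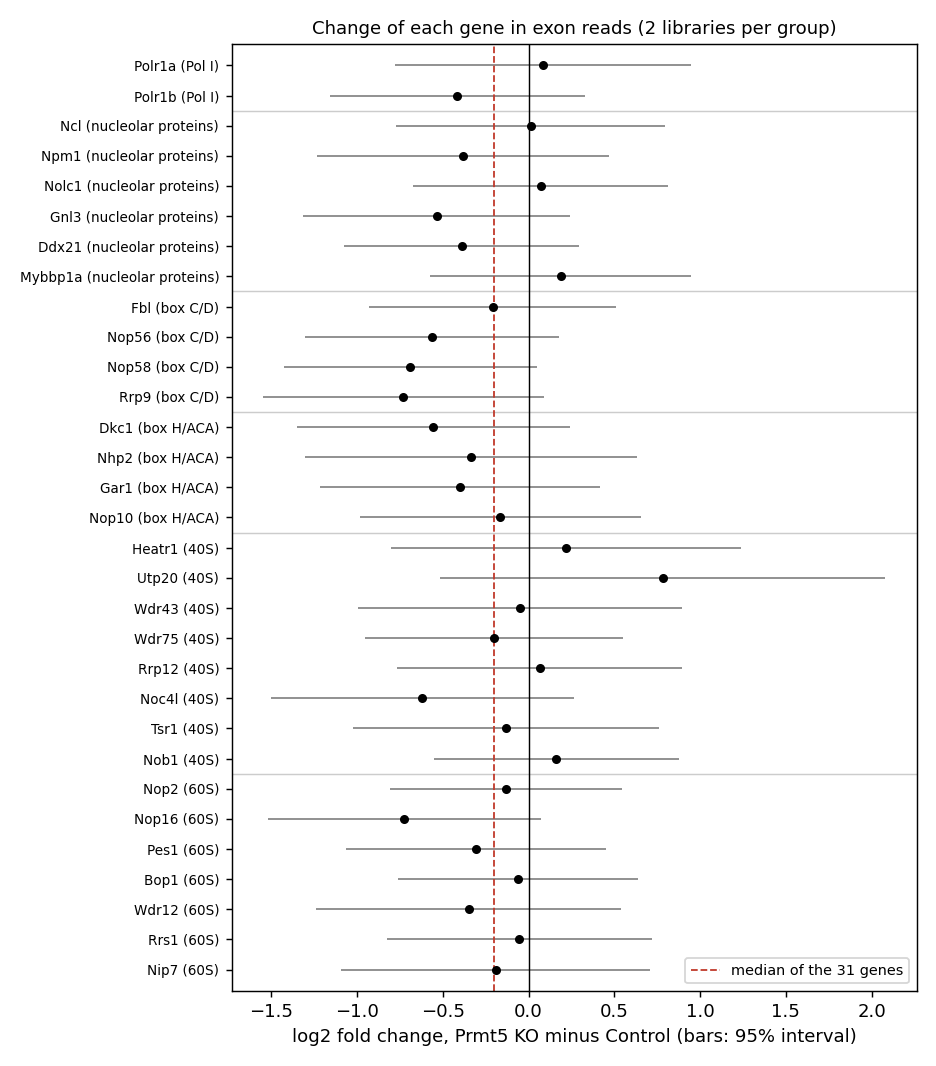
Log2 fold change of exon reads for each of the 31 genes, Prmt5 KO minus Control, from edgeR's quasi-likelihood fit on 2 libraries per group. Points are estimates, bars 95% intervals, grey lines separate the roles and the dashed line is the median of -0.20; every bar crosses 0.

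Levels within a group often differed as much as levels between groups. Between Control 1 and Control 2 the median absolute log2 ratio over the 31 genes was 0.31, and between Prmt5 KO 1 and Prmt5 KO 2 it was 0.48. For all tested genes these ratios were 0.45 and 0.53. A log2 ratio beyond 0.5 in size separated the Control libraries for 6 of the 31 genes and the Prmt5 KO libraries for 14. Of the 31 genes, 15 were lower in Prmt5 KO 1 than in Prmt5 KO 2 and 16 higher. The ratio of Prmt5 KO 1 to Prmt5 KO 2 went up with the listed exon length, with Spearman's rho of 0.31 over the 31 genes and 0.34 over all tested genes. For Control 1 over Control 2, rho was 0.25 over both sets. Genes of the same libraries share depth and RNA quality, so these values are descriptions.

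The summed level of the 31 genes was 6197 and 6372 CPM in Control 1 and 2, and 5361 and 5675 CPM in Prmt5 KO 1 and 2. Ncl, Npm1, Mybbp1a and Nop10 made up 40.6% to 47.5% of that sum. Both Prmt5 KO libraries were below both Control libraries, at 0.878 of the Control mean (5518 ± 222 against 6284 ± 123 CPM, SD, n = 2 each). This order depended on the scaling. With exon read totals alone the sums were 6292 and 5910 CPM in Control against 5991 and 5393 CPM in Prmt5 KO, and the groups overlapped.

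**Figure D2:**
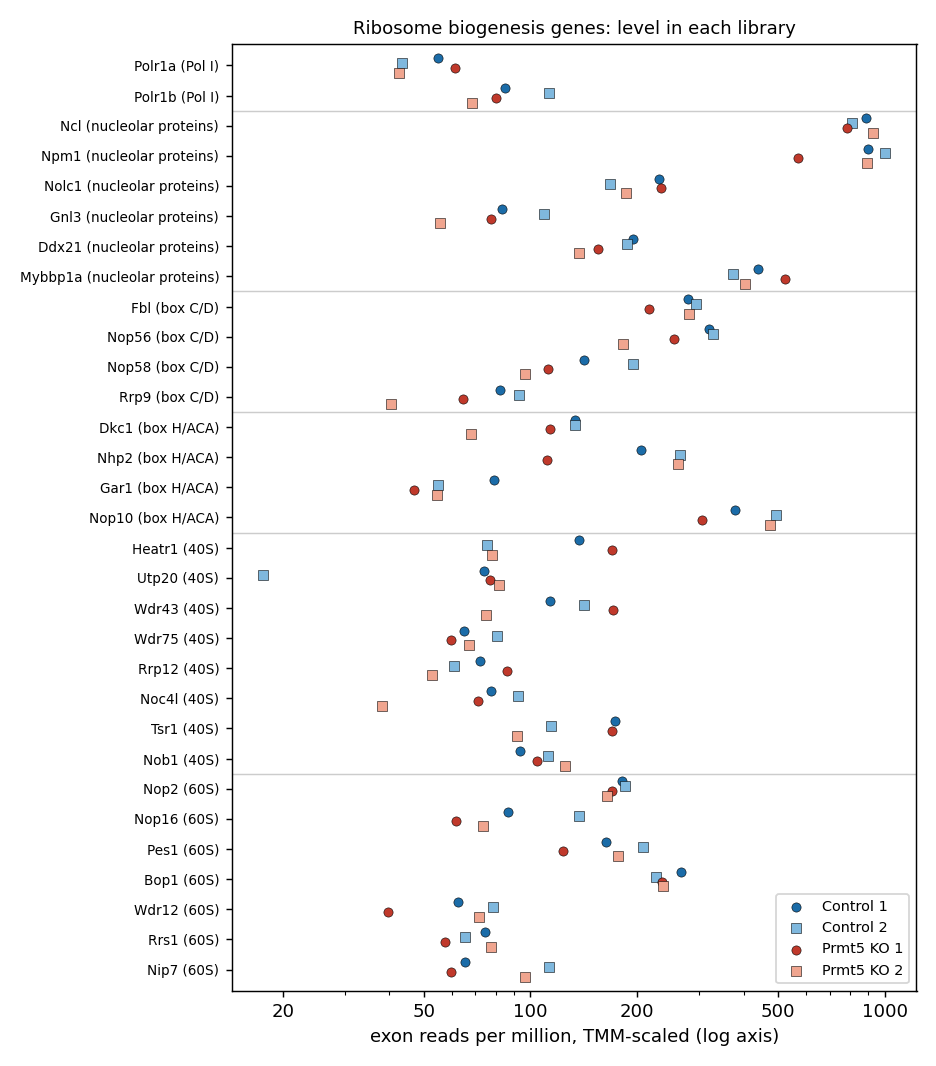
Level of each of the 31 genes in each of the 4 libraries, in CPM scaled by TMM on a log axis, with the role in brackets and points of 1 gene set slightly apart in height. Ncl and Npm1 are the highest, the Utp20 value of Control 2 is far below its other 3, and for most genes blue (Control) and red (Prmt5 KO) points are mixed.

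Per kilobase of listed exon, Nop10 had the highest mean level over the 4 libraries, at 372 CPM per kb. Npm1 at 315, Fbl at 231, Nhp2 at 184 and Bop1 at 97.3 CPM per kb came next. Wdr12, Utp20 and Polr1a were the lowest, at 5.28, 7.08 and 8.28 CPM per kb. These values depend on the exon length listed in the table, which is 11955 bases for Wdr12 and 10188 for Ncl. In 27 of the 31 genes, at least 95% of the exon reads of each library were unique. The exceptions were Fbl (25.5% to 27.1% unique), Tsr1 (55.9% to 70.6%), Pes1 (86.5% to 90.6%) and Npm1 (89.7% to 91.7%), whose levels are uncertain because part of their reads was not unique. With unique exon reads alone their log2 fold changes were -0.19, -0.32, -0.27 and -0.40. Exons of 13 of the 31 genes overlap exons of a gene on the opposite strand in GENCODE M21, and how the counting used strand is not given in the sources used here.

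RNA polymerase I was represented by its 2 largest subunits. Polr1a encodes the largest, with part of the active site, and lies on chromosome 6 (71909061 to 71979360 on mm10, plus strand). It was at 54.7 and 43.4 CPM in Control 1 and 2 against 61.4 and 42.5 CPM in Prmt5 KO 1 and 2. The groups overlapped, with the highest and the lowest value both in Prmt5 KO (log2 fold change 0.085 ± 0.38 SE). Polr1b encodes the second largest subunit and lies on chromosome 2 (129100995 to 129126594, plus strand). It was at 85.0 and 113 CPM in Control and at 79.8 and 68.3 CPM in Prmt5 KO. Both Prmt5 KO values were below both Control values (log2 fold change -0.42 ± 0.33 SE, adjusted p = 0.809, edgeR's quasi-likelihood test).

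Among 14 other genes of RNA polymerase I and ribosomal DNA transcription, all were tested and 0 passed in either direction. Their median log2 fold change was -0.11, with 10 negative. Those with the smallest p were Taf1d and Taf1c, subunits of the promoter selectivity factor SL1, and Ttf1, the termination factor. Taf1d was at 19.5 and 19.95 CPM in Control and at 34.4 and 28.4 CPM in Prmt5 KO. The log2 fold changes of Taf1d, Taf1c and Ttf1 were 0.67, 0.51 and 0.49, and their adjusted p 0.765, 0.799 and 0.869.

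The 6 nucleolar proteins included the most abundant of the 31 transcripts, and 3 had negative and 3 positive values, with a median of -0.19. Ncl encodes nucleolin, an RNA-binding protein of the nucleolus, on chromosome 1 (86344719 to 86359400, minus strand). It was at 887.5 and 808 CPM in Control and at 781 and 928 CPM in Prmt5 KO, whose libraries enclosed both Control values. Its log2 fold change was 0.012 ± 0.35 SE, with a 95% interval from -0.77 to 0.80. Npm1 encodes nucleophosmin, a chaperone of ribosomal proteins and histones, on chromosome 11 (33152287 to 33163206, minus strand). It was at 897 and 1004 CPM in Control and at 568 and 892 CPM in Prmt5 KO, with no overlap, although Prmt5 KO 2 lay just under Control 1 and Prmt5 KO 1 far below it. Its log2 fold change was -0.38 ± 0.38 SE (adjusted p = 0.864), and -0.083 without Prmt5 KO 1. Gnl3 encodes nucleostemin, a GTPase of proliferating cells, on chromosome 14 (31012434 to 31019089, minus strand). It was at 83.4 and 110 CPM in Control and at 77.3 and 55.5 CPM in Prmt5 KO, with no overlap of the groups (log2 fold change -0.54 ± 0.34 SE, adjusted p = 0.753). Ddx21, an RNA helicase of ribosomal RNA transcription, had a log2 fold change of -0.39 and also did not overlap between groups. Nolc1, a snoRNP chaperone, and Mybbp1a, a nucleolar partner of the MYB and p53 factors, had log2 fold changes of 0.073 and 0.19, with overlap.

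The 4 box C/D genes had a median of -0.63, all 4 negative, and 0 passed the test. This was the lowest median of the role groups with all 4 libraries, but without Prmt5 KO 2 it was -0.42, above those of 60S assembly (-0.57) and box H/ACA (-0.51). Nop56 encodes a core protein of these particles and lies on chromosome 2 (130274430 to 130279313, plus strand). It was at 320.3 and 327 CPM in Control and at 255 and 183 CPM in Prmt5 KO. Its groups did not overlap (log2 fold change -0.56 ± 0.33 SE, adjusted p = 0.695). Fbl encodes fibrillarin, the methyltransferase of the particle, on chromosome 7 (28169748 to 28179269, plus strand). It was at 279 and 294 CPM in Control and at 217 and 279.6 CPM in Prmt5 KO, where Prmt5 KO 2 lay between the Control values. Its log2 fold change was -0.21 ± 0.32 SE. Rrp9 encodes a protein specific to the U3 snoRNP, which guides the first cuts of the precursor, on chromosome 9 (106475963 to 106485424, plus strand). It was at 82.0 and 93.0 CPM in Control and at 64.6 and 40.6 CPM in Prmt5 KO, without overlap (log2 fold change -0.73 ± 0.36 SE, adjusted p = 0.619, and -0.43 without Prmt5 KO 2). Nop58, the partner of Nop56, was at 141 and 195 CPM in Control and at 112 and 96.7 CPM in Prmt5 KO. With all 4 libraries it had the smallest p of the 31 (log2 fold change -0.69 ± 0.33 SE, adjusted p = 0.616). All 4 box C/D genes had negative estimates with each library left out in turn, with medians of -0.42 without Prmt5 KO 2 to -0.80 without Prmt5 KO 1. The estimate of Fbl was only -0.027 without Prmt5 KO 1.

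All 4 box H/ACA genes had negative estimates, at a median log2 fold change of -0.37, with 0 past the threshold. Nop10 encodes the smallest protein of the particle, on chromosome 2 (112261926 to 112263269, plus strand). It was at 378 and 494 CPM in Control and at 305 and 473 CPM in Prmt5 KO, with overlap (log2 fold change -0.16 ± 0.36 SE). Nhp2 encodes an RNA-binding protein of the particle, on chromosome 11 (51619735 to 51623714, plus strand). It was at 205 and 265 CPM in Control and at 111 and 262 CPM in Prmt5 KO. Prmt5 KO 1 alone was low, and the log2 fold change of -0.34 ± 0.43 SE was 0.17 without that library. Dkc1 encodes dyskerin, the pseudouridine synthase, on chromosome X (75095854 to 75109777, plus strand). It was at 134 CPM in both Control libraries and at 114 and 68.1 CPM in Prmt5 KO, without overlap (log2 fold change -0.55 ± 0.35 SE, adjusted p = 0.744, and -0.23 without Prmt5 KO 2). Gar1, which helps release the modified RNA, had a log2 fold change of -0.40, without overlap, which was -0.082 without Control 1. Without Prmt5 KO 1, 2 of the 4 genes were negative, at a median of -0.080.

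Genes that act on snoRNP assembly and in the RNA exosome, which trims precursor ends, had a median of -0.023 over 21 tested, with 11 negative and 0 past the threshold in either direction. Exosc8 and Dis3, both of the exosome, and Znhit3, a box C/D assembly factor, had the smallest p. Exosc8 was at 102 and 135 CPM in Control and at 87.9 and 61.0 CPM in Prmt5 KO, without overlap. Their log2 fold changes were -0.67, 0.60 and -0.65, and their adjusted p 0.638, 0.775 and 0.789.

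The 8 genes of the small subunit had the widest spread, from -0.62 to 0.78, and a median of 0.0081, with 4 negative. Tsr1 encodes a late 40S maturation factor and lies on chromosome 11 (74898071 to 74909342, plus strand). It was at 173 and 114 CPM in Control and at 170.3 and 91.6 CPM in Prmt5 KO, so the first replicate of each group was high and the second low (log2 fold change -0.13 ± 0.39 SE). Wdr43 encodes a subunit of the complex that starts small subunit assembly, on chromosome 17 (71616215 to 71659031, plus strand). It was at 114 and 141 CPM in Control and at 171 and 75.0 CPM in Prmt5 KO, which enclosed both Control values. Its log2 fold change of -0.048 ± 0.42 SE was -0.75 with Prmt5 KO 1 left out and 0.43 without Prmt5 KO 2. Utp20 encodes a large scaffold protein of the small subunit processome, on chromosome 10 (88746607 to 88826814, minus strand). It was at 74.0 and 17.6 CPM in Control and at 76.9 and 81.5 CPM in Prmt5 KO. Control 2, with 75 exon reads, stood far below the other 3 libraries, which lay between 74.0 and 81.5 CPM, with both Prmt5 KO libraries above Control. The log2 fold change of 0.78 ± 0.57 SE was 0.091 without Control 2 and 2.20 without Control 1.

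Estimates of the other small subunit factors lay on both sides of 0. Heatr1, a scaffold of the processome, was at 138 and 75.6 CPM in Control and at 170.0 and 78.0 CPM in Prmt5 KO, again high in the first replicate of each group. Noc4l, a processome factor, had a log2 fold change of -0.62 without overlap of the groups, which ran from -0.24 without Prmt5 KO 2 to -1.14 without Prmt5 KO 1. Wdr75, of the same complex as Wdr43, and Rrp12, a 40S export factor, had log2 fold changes of -0.20 and 0.064. Nob1, the nuclease of the last 18S cut, had one of 0.16. The median of the 8 genes was -0.39 with Prmt5 KO 1 left out and 0.31 without Prmt5 KO 2. Of 36 further small subunit factors, all tested, 0 passed in either direction and the median was -0.0035, with 18 negative. Wdr46 and Utp6, both processome subunits, and Bms1, its GTPase, had the smallest p. Wdr46 was at 123 and 131 CPM in Control and at 80.7 and 65.8 CPM in Prmt5 KO (log2 fold change -0.79, adjusted p = 0.508). The log2 fold changes of Utp6 and Bms1 were -0.85 and 0.83, at adjusted p of 0.560 and 0.619.

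The 7 genes of 60S assembly all had negative estimates with TMM scaling, and 5 of the 7 with exon read totals, with a median of -0.19 and 0 past the threshold. Bop1 encodes a subunit of the PeBoW complex, which processes the precursor of the 28S and 5.8S RNAs, on chromosome 15 (76452996 to 76477269, minus strand). It was at 266 and 226 CPM in Control and at 235 and 236 CPM in Prmt5 KO, both between the Control values (log2 fold change -0.062 ± 0.31 SE). Nop2 encodes a methyltransferase of 28S RNA, on chromosome 6 (125131909 to 125144753, plus strand). It was at 181 and 185 CPM in Control and at 170.3 and 164 CPM in Prmt5 KO. These groups did not overlap, but the difference was small (log2 fold change -0.13 ± 0.30 SE, 95% interval -0.81 to 0.55). Nop16, a nucleolar 60S factor, lies on chromosome 13 (54584185 to 54590090, minus strand). It was at 86.8 and 137 CPM in Control and at 61.9 and 73.6 CPM in Prmt5 KO, without overlap (log2 fold change -0.72 ± 0.35 SE, adjusted p = 0.616). Pes1 and Wdr12, the other PeBoW subunits, had log2 fold changes of -0.31 and -0.35, Nip7 one of -0.19, and Rrs1, which helps load the 5S particle, one of -0.053. Without Prmt5 KO 1, 4 of the 7 were negative, at a median of -0.051, and without Prmt5 KO 2 all 7 were, at -0.57.

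Of 43 further 60S factors, all tested, 0 passed in either direction, with a median of 0.036 and 20 negative. Rbm28, an RNA-binding protein of 60S assembly, was at 60.9 and 46.9 CPM in Control and at 99.8 and 108 CPM in Prmt5 KO (log2 fold change 0.95, adjusted p = 0.433). Ddx56, a helicase, and Mdn1, the large ATPase that remodels the particle, had log2 fold changes of -0.60 and 0.78, at adjusted p of 0.650 and 0.659. Over all 127 further genes tested in these and the following lists, 0 passed, the median was -0.023 and 65 were negative. The difference between these genes and the 31 was not tested.

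**Figure D3:**
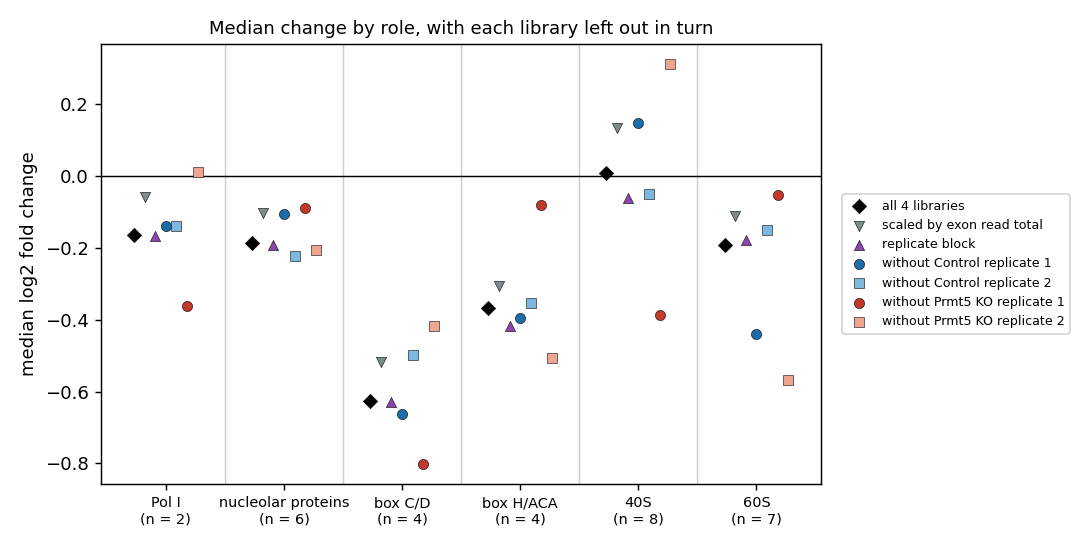
Median log2 fold change of exon reads (Prmt5 KO minus Control) for each role group with all 4 libraries, scaled by exon read total, with the replicate number as a block, and with each library left out in turn; n is the number of genes. The box C/D medians stay between -0.42 and -0.80, while the small subunit (40S) medians run from -0.39 to 0.31.

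Of the MYC network, 9 genes were tested and 0 passed, with a median of 0.083. Myc was at 223 and 156 CPM in Control and at 113 and 99.8 CPM in Prmt5 KO, without overlap (log2 fold change -0.83 ± 0.33 SE, adjusted p = 0.5001). Max was at 94.0 and 100.2 CPM in Control and at 31.2 and 82.3 CPM in Prmt5 KO (log2 fold change -0.78, adjusted p = 0.699). Mxd1, which encodes a repressor that competes for MAX, was at 15.2 and 18.3 CPM in Control and at 29.9 and 37.8 CPM in Prmt5 KO (log2 fold change 1.01, adjusted p = 0.588).

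RefSeq promoter windows (GRCm38.p6, 250 bases before to 50 after each transcript start) were at hand for 26 of the 31 genes. The E-box CACGTG, whose letters read the same on both strands, was found in the windows of 6 of these 26, which is 23.1%, beside 8.09% of all 27025 genes in the table. The 6 sites are shown with up to 12 bases on either side, 5′ to 3′ on the strand of the gene and with the E-box in capitals, because they are the MYC-type motifs found in the promoter windows of the 31 genes.
Nop2 (chr6:125131811-125131840, plus strand): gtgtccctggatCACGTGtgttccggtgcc
Pes1 (chr11:3963965-3963994, plus strand): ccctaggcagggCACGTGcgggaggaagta
Wdr43 (chr17:71616220-71616249, plus strand): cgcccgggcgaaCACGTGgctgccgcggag
Tsr1 (chr11:74898092-74898121, plus strand): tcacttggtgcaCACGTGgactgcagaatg
Utp20 (chr10:88826765-88826789, minus strand): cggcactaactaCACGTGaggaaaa
Mybbp1a (chr11:72441355-72441376, plus strand): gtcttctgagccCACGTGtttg
The E-box of Nop2 begins 60 bases before the transcript start, and the other 5 lie just after it, with the first base at positions 3 (Pes1), 18 (Wdr43), 25 (Tsr1), 38 (Utp20) and 41 (Mybbp1a). Positions count from RefSeq transcript starts, which for Nop2 and Tsr1, among others, differ from the gene starts in the deposited table. The 6 genes had a median log2 fold change in exon reads of -0.089, with 4 negative, and the other 20 genes with a window had one of -0.37, with 15 negative. A match of letters is no evidence of binding, and the difference between the medians was not tested.

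Genes of cycling cells were also summed. The summed level of 8 such genes, Mki67 and Top2a among them, was 1198 and 1074 CPM in Control against 866 and 604 CPM in Prmt5 KO. All 8 estimates were negative, with a median of -0.64, and 0 passed the test. Mdm2, the p53 inhibitor that ribosomal proteins bind, was at 88.0 and 74.9 CPM in Control and at 169 and 99.8 CPM in Prmt5 KO (log2 fold change 0.73, adjusted p = 0.619). It was 1 of 5 tested genes of the 5S particle and nucleolar p53 regulation, of which 0 passed and whose median was 0.26. Cdkn1a, a p53 target outside these lists that encodes the cell cycle inhibitor p21, was at 1.06 and 0.939 CPM in Control and at 26.8 and 30.1 CPM in Prmt5 KO, at a log2 fold change of 4.80 ± 0.69 SE (adjusted p = 0.0561). Rpf2, which loads the 5S particle, and the 5S particle protein gene Rpl11 had log2 fold changes of 0.26 and -0.25. The part of cycling in the levels of the 31 genes was not tested.

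Intron reads of these genes were few in every library. Of the unique reads of the 31 genes, 0.563% and 1.43% lay in introns in Control 1 and 2, against 2.81% and 1.63% in Prmt5 KO 1 and 2. For all genes with annotated exons the shares were 3.28% and 4.44% in Control, against 7.47% and 5.62% in Prmt5 KO, so both sets had the lowest share in Control 1 and the highest in Prmt5 KO 1. The test of intron against exon reads covered 29 of the 31 genes. It left out Rrs1, which has a single exon, and Nop10, with 9 unique intron reads in all. At an adjusted p under 0.05, 0 of the 29 were called, beside 0% of all 7400 tested genes, and 5 reached an unadjusted p under 0.05 (17.2%), beside 6.78%. With total intron and exon reads that was 7 of 29 (24.1%), beside 7.33%, and with the replicate number as a block 5 of 29 (17.2%), beside 6.89%. With at least 20 intron reads it was 4 of 26 (15.4%), beside 7.33%, and with at least 3 it was 5 of 30 (16.7%), beside 6.64%. Each of these counts used all 4 libraries, so they do not show how far the shares rest on 1 library. The log2 change of the intron-to-exon ratio had a median of 1.11 over the 29 genes and of 1.09 over all tested genes. It was positive for 25 of 29, beside 82.1% of all. Standard errors of this log2 change ran from 1.20 (Gnl3) to 2.21 (Pes1) over the 29 genes. Large changes of single genes could thus not be told from 0. In 11 of the 29 genes (37.9%) the intron share of both Prmt5 KO libraries was above both Control libraries, which is near the 39.2% of all tested genes. Without Control 2 the medians were 2.19 and 1.52, and without Prmt5 KO 1 they were 0.974 and 0.811.

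Tsr1, Mybbp1a and Polr1b had the smallest p in the intron test. Tsr1 had 3 and 0 unique intron reads in Control against 93 and 17 in Prmt5 KO, or 0.494% of 607 and 0% of 343 unique reads against 5.95% and 6.14%. A count of 0 in Control 2 allows a share of up to 0.875%. Only part of the exon reads of Tsr1 entered these shares, since 55.9% to 70.6% of them were unique. GENCODE M21 places snoRNA genes inside Tsr1 on its strand and exons of Srr across its exons on the other. Mybbp1a had 3 and 2 unique intron reads in Control against 168 and 20 in Prmt5 KO, or 0.121% and 0.126% against 2.13% and 0.969%. Polr1b had 0 and 1 in Control against 33 and 10 in Prmt5 KO, or 2.74% and 2.83% of its unique reads in the latter. The groups did not overlap for these 3 genes, and their adjusted p was 0.717 in edgeR's quasi-likelihood test. Wilson 95% intervals and limits from a count of 0 cover counting error only, since amplified reads that carry no molecular identifier may copy 1 molecule.

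Gnl3 and Utp20 were chosen after their values were seen. The intron share of Gnl3 was 3.48% (Wilson 95% interval 2.19% to 5.51%) and 4.11% (2.67% to 6.26%) in Control 1 and 2. In Prmt5 KO 1 and 2 it was 16.8% (15.0% to 18.9%) and 16.6% (13.0% to 20.9%), with 231 and 56 intron reads. Its log2 change was 2.35 ± 1.20 SE, beside the median of 1.09 over all genes, with an adjusted p of 0.721 in the same test. GENCODE M21 places the snoRNA genes Snord19 and Snord69 inside Gnl3 on its strand and exons of Pbrm1 across its exons on the other, and 7 of the 31 genes hold a snoRNA gene in this way. For Utp20, Control 2 had 51 intron reads among 126 unique reads (40.5%, 32.3% to 49.2%), beside 1.18%, 8.55% and 4.17% in Control 1, Prmt5 KO 1 and Prmt5 KO 2. This is the library in which its exon level was low.

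**Figure D4:**
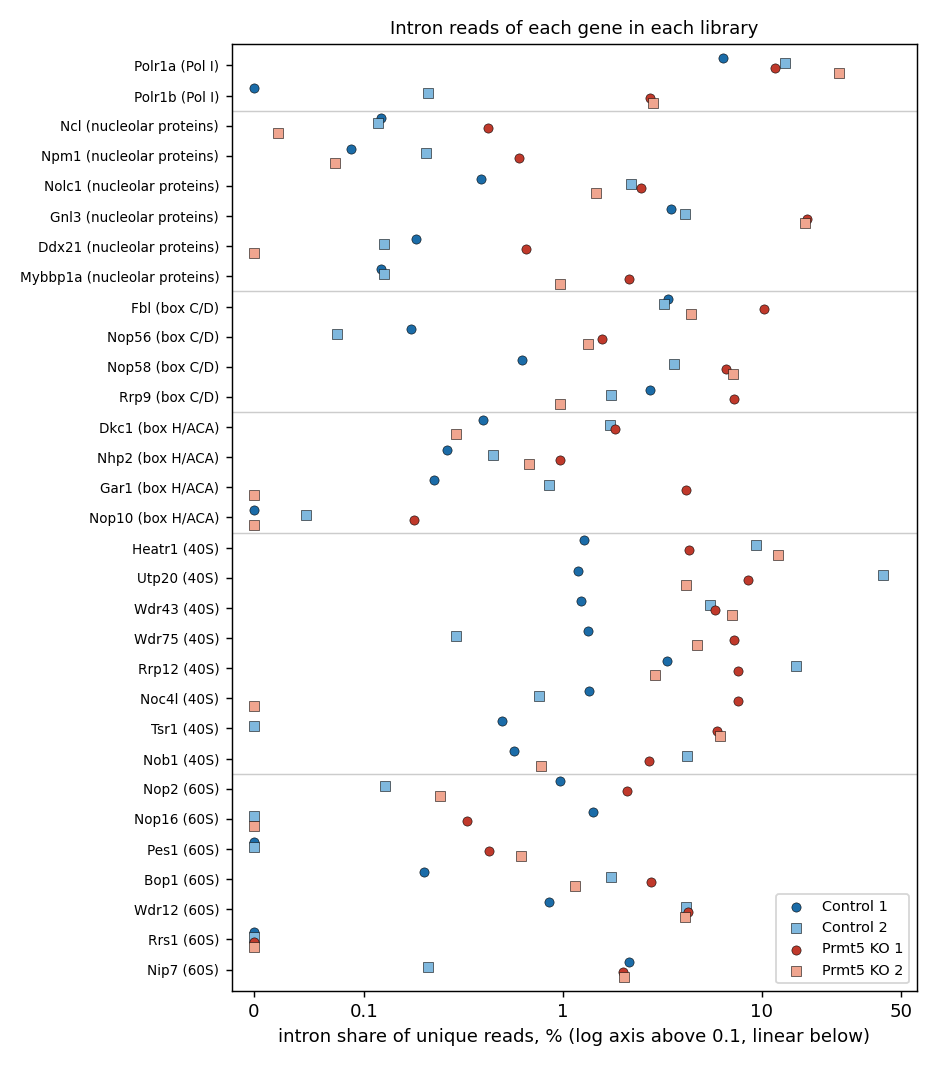
Intron reads as a percentage of the unique reads of each of the 31 genes in each library, on an axis that is logarithmic above 0.1% and linear below, with points of 1 gene set slightly apart in height. Gnl3 stands at 3.48% and 4.11% in Control and at 16.8% and 16.6% in Prmt5 KO, and Utp20 at 40.5% in Control 2.

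Reads across exon junctions gave a further view of single libraries. Of the unique exon reads of Nop56, 79.2% and 81.6% spanned a junction in Control 1 and 2 and 83.4% in Prmt5 KO 2, but 62.9% (Wilson 95% interval 61.3% to 64.5%) in Prmt5 KO 1. Of those of Polr1b, 24.7% (21.03% to 28.7%) did so in Control 2, against 42.3% to 44.7% in the other 3 libraries. Both differences set 1 library apart from its own replicate and were chosen after their values were seen. They do not separate the groups.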

How the data were processed

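In 1 table the authors deposited unnormalized counts of unique and of total reads for the exons, introns, exon-exon junctions and whole span of each gene. Reads were trimmed and single, per the file headers. Per the submitters' processing notes, edgeR and the build mm10 were used. The sources used here do not name the mapper, the annotation or the strand setting. Deposited starts count from 0, and 1 was added.

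Total exon reads entered the quasi-likelihood test (edgeR 4.0.16, R 4.3.3) after filterByExpr and TMM scaling, with Benjamini-Hochberg adjustment over all tested genes at 0.05. Alternatives used DESeq2 1.42.0 and limma 3.58.1. Standard errors are the absolute coefficient over the root of F. Intron and exon reads (unique) were compared within libraries for genes with at least 20 exon reads in every library and 10 intron reads in all. Both tests were also run on simulated data with known changes. The simulated intron reads had a set spread that was not estimated from these data. That run does not show what the intron test could find here. Exon reads per library were 4600799 to 13240293, and those of the 31 genes 75 to 11528. The 31 genes and all lists were chosen with earlier results of these data known. The rule for named genes gave values per library to the 2 highest members of each role and the one with the largest change, and named up to 3 genes of each further list by smallest p at a mean of at least 5 CPM. Library values of Nop58, Heatr1 and Cdkn1a were added after they were seen. The 31 genes match GENCODE M21 by symbol, 20 with the same coordinates. RefSeq promoters carry the build GRCm38.p6, which is mm10 with patches. Promoters of Npm1, Fbl, Bop1, Rrp12 and Rrs1 were not used here.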

Additional observations from a re-analysis of the deposited data

How the results depend on the processing

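No alternative called any of the 31 genes: 0 were past the threshold with other scalings, no filter, DESeq2, limma-voom, unique exon reads, total gene reads, the replicate block or any library left out. The number of all genes called moved from 1 to 215 with no filter, 171 with DESeq2, 13 with limma-voom, 14 with total gene reads and 362 with the replicate block, and with 1 library left out it ran from 1 (without Control 1) to 37 (without Prmt5 KO 2), with 4 without Control 2 and 9 without Prmt5 KO 1. The cause was not tested. The replicate number is shared between groups only by label. Across 10775 genes the deviations of same-numbered libraries correlated at r = 0.19, and the median over the 31 genes was -0.20 with or without the replicate block. The median over the 31 genes was -0.11 scaled by exon read total, a scaling that moves the median of all genes to 0.093 (0.15 with no filter), and -0.15 to -0.31 with 1 library left out. With exon read totals the estimates of Wdr43, Bop1 and Rrs1 turned to 0.093, 0.022 and 0.016, and with total gene reads those of Ncl and Rrp12 to -0.058 and -0.067. The fits with 1 library left out share libraries, and the share of all tested genes that kept their sign was not counted. Of the 31, 17 kept their sign (15 negative, 2 positive) though some moved widely (Gar1 from -0.64 to -0.082), and 14 did not. Those 14 ranged as follows: Polr1a from -0.20 to 0.33, Ncl from -0.11 to 0.14, Nolc1 from -0.14 to 0.35, Mybbp1a from -0.0063 to 0.37, Nhp2 from -1.08 to 0.17, Nop10 from -0.51 to 0.13, Heatr1 from -0.45 to 0.75, Wdr43 from -0.75 to 0.43, Rrp12 from -0.32 to 0.37, Tsr1 from -0.64 to 0.25, Bop1 from -0.18 to 0.10, Wdr12 from -0.82 to 0.028, Rrs1 from -0.28 to 0.15, Nip7 from -0.57 to 0.25. In the intron test 0 genes were called under each alternative, except 1 of all genes without Prmt5 KO 2 (0 to 1 over libraries left out), and 0 of the 31 genes in any.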
